A study of Saccharomyces cerevisiae with 18 samples.

Results

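The PIR genes (proteins with internal repeats) of budding yeast are described here in newly synthesized RNA sequencing (nsRNA-seq) libraries, which count RNA made during a short labelling pulse. The members were PIR1 (YKL164C), HSP150 (YJL159W, also called PIR2), PIR3 (YKL163W) and CIS3 (YJL158C, also called PIR4), 4 of the 6692 genes in the count tables, taken by their identifiers. They were chosen by the sense counts of these same libraries and the changes between groups that these show, so their levels and responses are given as a description without a test. All 4 passed the filter on low counts (a mean of 10 or more reads over the libraries), as did 5567 genes in all, which were tested in one fit across all libraries.

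The libraries came from W303 strains in which a protein carries an auxin-inducible degron (AID). The Spt20-AID strain carried Spt20-3xHA-IAA7, the Med16/Spt20-AID strain Med16-3V5-IAA7 and Spt20-3xHA-IAA7, and the Med16/Taf13-AID strain Med16-3V5-IAA7 and Taf13-3xHA-IAA7. All strains expressed OsTIR1 from the GPD1 promoter, were grown in YPD, and received 0.5 mM 3-IAA, an auxin, or the solvent DMSO for 30 min before 6 min of 4-thiouracil labelling, with 3 replicates in each of 6 groups and 18 libraries in all. Spt20 is a structural subunit of the coactivator SAGA, Med16 joins the tail module to the rest of Mediator, and Taf13 is a subunit of TFIID. No library came from a strain without a degron, and the action of the auxin and the loss of the protein cannot be told apart. The Med16/Taf13-AID libraries came from another sequencing run than the rest, as the names of the deposited tables show, so for those libraries strain and run cannot be told apart.

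Pir proteins are O-mannosylated secreted glycoproteins that are cut by the Kex2 protease and bound to β-1,3-glucan of the cell wall through an alkali-sensitive bond. They strengthen the wall and lower its permeability. Their genes are known targets of the cell wall integrity pathway, in which the kinase Slt2 activates the transcription factors Rlm1 and SBF, and several of them are known to vary over the cell cycle. Depletion of a coactivator with such strains asks how far transcription of a gene depends on it.

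The PIR genes lie in 2 neighbouring pairs (RefSeq R64, the assembly also called sacCer3). PIR1 (chrXI:141794-142819, minus strand) and PIR3 (chrXI:144401-145378, plus strand) are divergent, with 1581 bases between their coding sequences. HSP150 (chrX:120449-121690, plus strand) and CIS3 (chrX:122265-122948, minus strand) are convergent, with 574 bases between them. A further PIR gene, PIR5 (YJL160C, chrX:117962-118825, minus strand), is divergent from HSP150. The windows from 350 to 101 bases before each start codon are printed because the members responded differently and this is the DNA next to which transcription starts. They were read from RefSeq R64, 5′ to 3′ on the strand of the gene, and capitals mark TATA elements (TATA, then A or T, then A, then A or T, then A or G) and the Rlm1 site (CTA and TAG with any 4 bases between them).
PIR1: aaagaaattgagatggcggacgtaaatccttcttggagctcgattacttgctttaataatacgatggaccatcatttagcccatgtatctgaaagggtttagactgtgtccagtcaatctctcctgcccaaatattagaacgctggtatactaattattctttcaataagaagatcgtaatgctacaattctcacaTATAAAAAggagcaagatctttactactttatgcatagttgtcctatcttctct
HSP150: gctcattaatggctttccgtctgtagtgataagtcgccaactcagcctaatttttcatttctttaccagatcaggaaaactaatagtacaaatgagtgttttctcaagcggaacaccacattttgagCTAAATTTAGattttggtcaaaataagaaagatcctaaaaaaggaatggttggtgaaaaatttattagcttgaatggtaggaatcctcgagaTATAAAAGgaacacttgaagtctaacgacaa
PIR3: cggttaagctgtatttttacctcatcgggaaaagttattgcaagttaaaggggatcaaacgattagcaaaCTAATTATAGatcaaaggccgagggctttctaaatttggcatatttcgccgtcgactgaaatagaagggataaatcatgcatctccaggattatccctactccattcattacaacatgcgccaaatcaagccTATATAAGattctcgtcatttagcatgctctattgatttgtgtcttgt
CIS3: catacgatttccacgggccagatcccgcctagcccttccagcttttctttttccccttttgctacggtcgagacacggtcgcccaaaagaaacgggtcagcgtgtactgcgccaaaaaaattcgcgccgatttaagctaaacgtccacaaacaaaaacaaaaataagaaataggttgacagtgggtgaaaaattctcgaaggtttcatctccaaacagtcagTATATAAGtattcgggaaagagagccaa

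The windows were chrXI:142920-143169 for PIR1, chrX:120099-120348 for HSP150, chrXI:144051-144300 for PIR3 and chrX:123049-123298 for CIS3. A TATA element was present in all 4, at 154 to 147 bases before the start codon in PIR1, 131 to 124 in HSP150, 148 to 141 in PIR3 and 128 to 121 in CIS3. The same search on both strands found a TATA element in 33.8% of 6001 windows of this length. The Rlm1 letters, found in 4.75% of windows, were in HSP150 (223 to 214) and in PIR3 (280 to 271). None of the letters marked in capitals overlapped another marked motif. The SBF letters CGCGAAA (3.92% of windows) and the heat shock element GAANNTTC (10.2%) were in no member's window, and the stress letters AGGGG (20.1%) were in those of PIR3 and CIS3. In the 600 bases before the start codon AGGGG was in all 4 members and in 39.7% of genes, so it does not set members apart. Within each neighbouring pair the Rlm1 letters were thus in the window of 1 gene, and the TATA element in both.

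Members were similar enough in sequence for shared reads to matter. Identity of aligned coding sequence ranged between 73.9% for PIR3 with CIS3 and 82.8% for PIR1 with HSP150. Stretches of 38 bases, the shorter read length in the methods, that were not unique in the genome made up 17.6% of those of PIR1, 12.9% of HSP150, 17.2% of PIR3 and 4.33% of CIS3. PIR1 and PIR3 shared 84 such stretches, and HSP150 and CIS3 shared 28. Reads that map to several places were left out of the gene counts, and how many reads of these stretches were lost was not measured.

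The libraries held 874975 to 6189719 sense reads in genes, and the Med16/Taf13-AID libraries treated with 3-IAA were the least deep (874975 to 1029147). Reads outside genes, unmapped or mapped to several places made up 68.8% to 86.6% of a library, and the share mapped to several places was 57.4% to 58.6% in Med16/Taf13-AID cells with 3-IAA, against 44.1% to 49.2% with DMSO. Normalized read counts are sense reads divided by the size factor from the S. pombe spike-in, and fold changes are 3-IAA over DMSO. The median log2 fold change of all 5567 genes was 0.38 in Spt20-AID, 0.31 in Med16/Spt20-AID and -1.68 in Med16/Taf13-AID. These medians were 0.02, 0.02 and -0.02 when libraries were scaled by TMM, under which the bulk of genes is taken as constant, so a member's value is also given relative to the median. Degrons act on proteins, and transcripts of SPT20, MED16 and TAF13 were therefore not used as a check of depletion.

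Per length, HSP150 was the most transcribed member in every group. In DMSO its level was 1897 ± 405 normalized reads per kb in Spt20-AID, 2866 ± 144 in Med16/Spt20-AID and 3956 ± 714 in Med16/Taf13-AID (SD, n = 3 each), which ranked it 152, 157 and 92 from the top of 5479 genes. PIR1 (rank 394, 252 and 201) and CIS3 (rank 292, 360 and 233) followed. PIR3 was much lower, at 134.6 ± 19.7, 147.8 ± 21.4 and 279.7 ± 93.2 normalized reads per kb in the same DMSO groups, ranks 3464, 4674 and 2893. Of the members, 3 were therefore among the more strongly transcribed genes of the genome and 1 was of middling or low level.

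Depletion of Spt20 alone was accompanied by lower transcription of CIS3 and PIR3, and PIR1 and HSP150 did not part from their DMSO libraries. CIS3, which encodes a mannosylated constituent of the wall, was 295.6, 291.1 and 385.8 normalized reads in the 3 Spt20-AID libraries with 3-IAA, against 881.3, 898 and 579.5 with DMSO. The groups did not overlap, and replicate 3 was the closest pair, with the highest value of the 3-IAA group and the lowest of the DMSO group. The log2 fold change was -1.28 (SE 0.14), which is -1.66 relative to the median, and 52 of 5567 genes had a lower value. PIR3, a wall glycoprotein gene known as a target of Slt2 signalling, was 64.69, 72.77 and 75.93 normalized reads with 3-IAA, against 141.1, 144.4 and 109.6 with DMSO. All 3 depleted libraries were below all DMSO libraries, with a log2 fold change of -0.88 (SE 0.18), or -1.26 relative to the median, and 142 genes had a lower value.

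In the same strain PIR1, which encodes a wall glycoprotein needed for wall stability, was 922.2, 861.2 and 1195 normalized reads with 3-IAA, against 979.5, 1198 and 724.7 with DMSO. HSP150, whose secreted product increases under heat and other stress, was 1921, 1905 and 2897 with 3-IAA, against 2250, 2904 and 1914 with DMSO. For both genes the groups overlapped, with log2 fold changes of 0.04 (SE 0.14) for PIR1 and -0.07 (SE 0.14) for HSP150. In each, the same-numbered libraries of replicates 1 and 2 were lower with 3-IAA (PIR1 -0.09 and -0.48, HSP150 -0.23 and -0.61 as log2 differences) and those of replicate 3 were higher (0.72 and 0.60). The median of all genes also differed most in replicate 3, at 0.76 against 0.23 and 0.11 in replicates 1 and 2, and relative to these medians PIR1 was at -0.32, -0.58 and -0.04 and HSP150 at -0.46, -0.72 and -0.16. Without replicate 3 the fold changes were -0.29 for PIR1 and -0.43 for HSP150. Of the 4 members, 2 were lower without overlap of the libraries, 0 were higher and 2 overlapped, where 6.75% of all genes tested were lower and 49.2% higher without overlap.

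Joint depletion of Med16 and Spt20 left CIS3 low, with slightly lower PIR1 and HSP150, and PIR3 was higher than in DMSO. CIS3 was 450.2, 455.2 and 416.4 normalized reads in Med16/Spt20-AID cells with 3-IAA, against 1047, 1089 and 1010 with DMSO. The groups were far apart, the 3 pairs lay between -1.22 and -1.28, and the log2 fold change was -1.25 (SE 0.14), or -1.56 relative to the median, with 104 genes lower. PIR3 was 177.2, 203.7 and 201.2 normalized reads with 3-IAA, against 135.3, 129.9 and 168.5 with DMSO. Every 3-IAA library was above every DMSO library, although the lowest with 3-IAA (177.2) and the highest with DMSO (168.5) were close. The log2 fold change of PIR3 was 0.42 (SE 0.17), but only 0.11 relative to the median and 0.10 with TMM scaling, so PIR3 moved about as far as the middle of the genome.

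PIR1 was 1620, 1756 and 1509 normalized reads in Med16/Spt20-AID cells with 3-IAA, against 2210, 1973 and 1862 with DMSO, and HSP150 was 2491, 3263 and 2737 with 3-IAA, against 3468, 3765 and 3445 with DMSO. Neither gene's groups overlapped, and the log2 fold changes were nearly equal, at -0.31 (SE 0.14) for PIR1 and -0.33 (SE 0.14) for HSP150, or -0.62 and -0.64 relative to the median. Of the 4 members, 3 were lower and 1 was higher without overlap, where 12.1% of all genes were lower and 54.2% higher. The median over the 4 members was -0.32, against 0.31 over all genes, and it was -0.48 against 0.38 in Spt20-AID.

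In Med16/Taf13-AID cells transcription of nearly all genes was lower with 3-IAA, and the PIR genes were lower too. PIR1, HSP150 and PIR3 were lower by less than the median gene, and CIS3 by about as much as the median gene. PIR1 was 758.4, 920 and 868.5 normalized reads with 3-IAA, against 2003, 2384 and 1976 with DMSO (log2 fold change -1.32, SE 0.15). HSP150 was 1952, 2185 and 1917 with 3-IAA, against 4712, 5884 and 4145 with DMSO (-1.28, SE 0.15). CIS3 was 453.3, 451.8 and 408.6 with 3-IAA, against 1157, 1521 and 1136 with DMSO (-1.54, SE 0.15). These 3 genes showed wide gaps between the groups, and relative to the median of -1.68 they were at 0.36, 0.40 and 0.14.

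PIR3 stood apart again in Med16/Taf13-AID cells, at 173.1, 186.8 and 191.9 normalized reads with 3-IAA, against 220.6, 378.9 and 221.2 with DMSO. The log2 fold change was -0.57 (SE 0.17), or 1.11 relative to the median, and 96 of 5567 genes had a higher value. The groups did not overlap, but the DMSO library of replicate 2 was far above the other two, and without replicate 2 the fold change was -0.28. All 4 members were lower without overlap, and so were 97.6% of all genes, with 0.0359% higher. With TMM scaling the direction of all 4 turned, to 0.35 for PIR1, 0.39 for HSP150, 1.10 for PIR3 and 0.13 for CIS3, so their lower level in these cells rests on the spike-in. In a bulk culture fewer cells that transcribe a gene and less transcription per cell cannot be told apart.

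**Figure D1:**
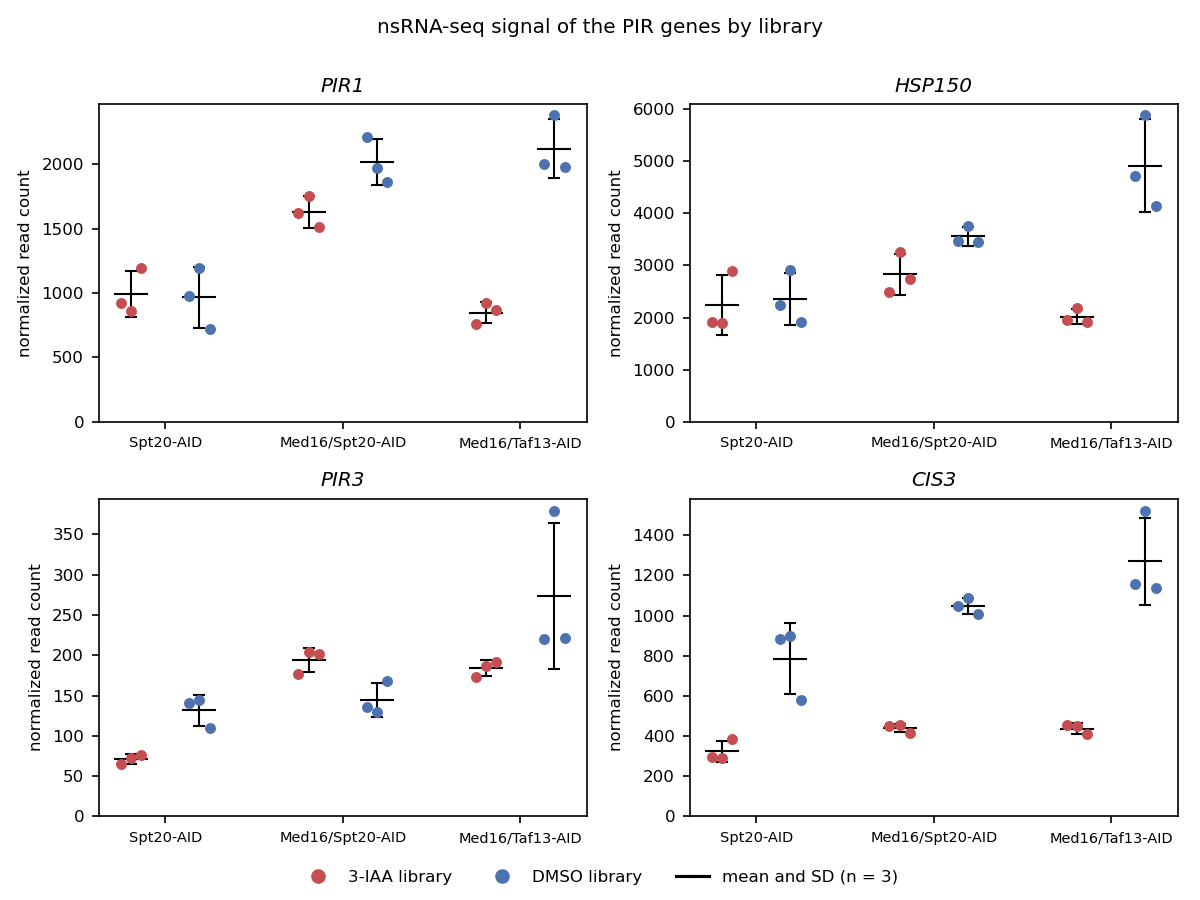
Normalized sense read counts of PIR1, HSP150, PIR3 and CIS3 (y axes, from 0) in the 18 libraries by strain, with 3-IAA libraries left of DMSO libraries; points are libraries and black bars the mean and SD of 3. On this spike-in scale CIS3 is lower with 3-IAA in all 3 strains, while PIR3 is lower in Spt20-AID (64.69 to 75.93 against 109.6 to 144.4) and higher in Med16/Spt20-AID (177.2 to 203.7 against 129.9 to 168.5).

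Between Med16/Spt20-AID and Spt20-AID the response of PIR3 differed most among the members. Its log2 fold change in Med16/Spt20-AID minus that in Spt20-AID was 1.30 (SE 0.24), and 9 of 5567 genes had a higher difference. The same difference was -0.35 (SE 0.20) for PIR1, -0.26 (SE 0.20) for HSP150 and 0.03 (SE 0.20) for CIS3, where the median of all genes was -0.10. PIR3 was one of 10 genes (0.18% of those tested) that were lower in Spt20-AID and higher in Med16/Spt20-AID without overlap in either, and 30 genes (0.539%) had the opposite pattern. The DMSO levels of PIR3 in the 2 strains overlapped, with means of 144.6 ± 20.9 in Med16/Spt20-AID and 131.7 ± 19.2 in Spt20-AID, and the 3-IAA levels did not, at 194.0 ± 14.6 and 71.13 ± 5.80 (SD, n = 3 each). This holds on the spike-in scale, on which the typical gene with DMSO was 2.01 times as high in Med16/Spt20-AID as in Spt20-AID. Relative to other genes PIR3 was already lower with DMSO in Med16/Spt20-AID, at 0.0725 reads per PIR1 read, against 0.139 in Spt20-AID without overlap, and at rank 4674, against 3464. These strains differ in construction as well as in the tagged subunit. For scale, 0.611% of all genes had a called positive difference and 2.64% a called negative one.

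**Figure D2:**
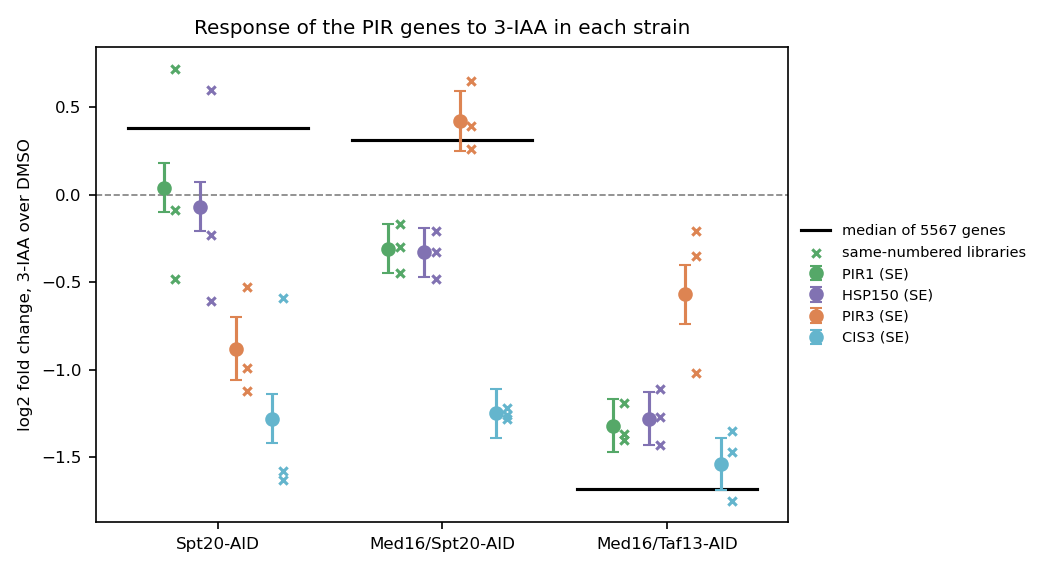
Log2 fold change of the PIR genes, 3-IAA over DMSO (y axis), by strain; circles and bars are the fitted value and its SE, crosses the differences of same-numbered libraries and black lines the median of 5567 genes. PIR3 is at -0.88, 0.42 and -0.57 in the 3 strains, and PIR1 and HSP150 stay side by side in each.

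On the spike-in scale the order of the 6 groups differed between members. This order also holds the shift of all genes between strains, such as the 2.01 times higher typical gene in Med16/Spt20-AID than in Spt20-AID with DMSO. CIS3 was highest with DMSO in Med16/Taf13-AID (1271 ± 216), Med16/Spt20-AID (1049 ± 39.8) and Spt20-AID (786.3 ± 179), in that order and without overlap of neighbours. The 3-IAA groups of CIS3 came last, at 440.6 ± 21.1 in Med16/Spt20-AID and 437.9 ± 25.4 in Med16/Taf13-AID, which overlapped, and 324.2 ± 53.4 in Spt20-AID. Every DMSO group of CIS3 thus lay above every 3-IAA group on this scale, but with TMM scaling its log2 fold change in Med16/Taf13-AID was 0.13. The order of PIR3 mixed the treatments: Med16/Taf13-AID with DMSO (273.6 ± 91.2) was first, followed by Med16/Spt20-AID with 3-IAA (194.0 ± 14.6) and Med16/Taf13-AID with 3-IAA (183.9 ± 9.71), which overlapped. Spt20-AID cells with 3-IAA (71.13 ± 5.80) were last and overlapped with no other group, and the highest mean of PIR3 was 3.85 times the lowest. PIR1 and HSP150 were lowest in Med16/Taf13-AID with 3-IAA, at 849 ± 82.6 and 2018 ± 145, where they overlapped with the next group.

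Ratios of reads within a library do not depend on any scaling, but they restate the sense counts by which the members were chosen. They are a description and no separate support. Only some pairs of members were compared, and how often other pairs of genes part this way was not measured. For 1 PIR1 read there were 0.0701, 0.0845 and 0.0635 PIR3 reads in Spt20-AID with 3-IAA, against 0.144, 0.121 and 0.151 with DMSO. In Med16/Spt20-AID the ratio was 0.109, 0.116 and 0.133 with 3-IAA, against 0.0612, 0.0659 and 0.0905 with DMSO. In Med16/Taf13-AID it was 0.228, 0.203 and 0.221 with 3-IAA, against 0.110, 0.159 and 0.112 with DMSO. The groups never overlapped, and the log2 change of the ratio was -0.93 in Spt20-AID, 0.74 in Med16/Spt20-AID and 0.80 in Med16/Taf13-AID. The ratio of these divergent neighbours was thus lower with 3-IAA in Spt20-AID and higher in Med16/Spt20-AID and Med16/Taf13-AID. In Med16/Taf13-AID both genes were lower on the spike-in scale, PIR1 at -1.32 and PIR3 at -0.57.

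The convergent pair parted as well. CIS3 reads per HSP150 read were 0.154, 0.153 and 0.133 in Spt20-AID with 3-IAA, against 0.392, 0.309 and 0.303 with DMSO. The mean was 0.157 with 3-IAA, against 0.295 with DMSO, in Med16/Spt20-AID, and 0.217 with 3-IAA, against 0.259 with DMSO, in Med16/Taf13-AID. The libraries did not overlap in any strain, and the log2 changes were -1.18, -0.92 and -0.25. By contrast HSP150 reads per PIR1 read overlapped in every strain. Their mean in Spt20-AID was 2.24 ± 0.172 with 3-IAA, against 2.45 ± 0.174 with DMSO (SD, n = 3 each). It was 1.74 ± 0.174 with 3-IAA, against 1.78 ± 0.181 with DMSO, in Med16/Spt20-AID, and 2.39 ± 0.184 with 3-IAA, against 2.31 ± 0.190 with DMSO, in Med16/Taf13-AID. PIR3 reads per CIS3 read were higher with 3-IAA in every strain without overlap, by 0.38, 1.69 and 1.00 on the log2 scale. As a share of the reads of the members together, without PIR5, CIS3 was 9.0% ± 0.46, against 18.5% ± 1.9 with DMSO, in Spt20-AID. On the same measure PIR3 was 3.82% ± 0.28, against 2.15% ± 0.40 with DMSO, in Med16/Spt20-AID.

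**Figure D3:**
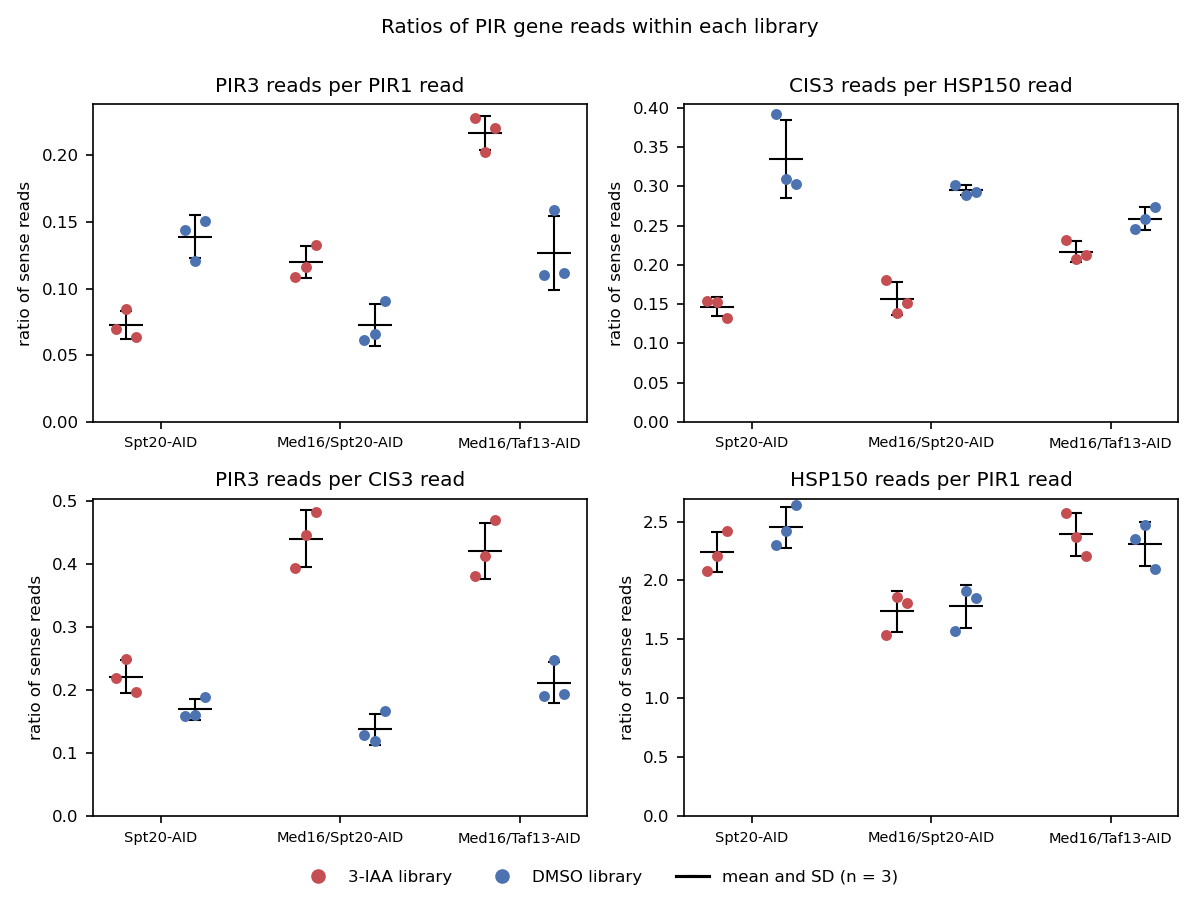
Sense reads of one PIR gene per read of another within each library (y axes, from 0), by strain, with 3-IAA left of DMSO; points are libraries and black bars the mean and SD of 3. PIR3 per PIR1 is lower with 3-IAA in Spt20-AID (mean 0.0727 against 0.139) and higher in the other strains, and HSP150 per PIR1 overlaps in all 3.

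Correlation over the 18 libraries was computed on TMM-scaled log2 CPM among 5147 genes averaging 50 or more reads. It describes the same sense counts again and is no separate evidence for a grouping of the members. Pearson's r was 0.94 for PIR1 with HSP150, 0.74 for PIR3 with CIS3 and 0.85 to 0.88 for the other pairs, where a typical gene had r of -0.04 with PIR1. Many other genes were closer: HSP150 ranked 44 in likeness to PIR1, and PIR1 ranked 29 in likeness to HSP150. In the other pairs the ranks were 135 to 591. The points share libraries, strains and the shift between them. The genes most like PIR1 were LSB1 (0.977), ACC1 (0.972) and ECM38 (0.972), those most like HSP150 were SED1 (0.978), PYC1 (0.974) and CPA1 (0.973), and those most like CIS3 were ACS2 (0.991), PFK1 (0.990) and FCY2 (0.989). PIR3 was most like CCW14 (0.958), BSC1 (0.958) and YEH1 (0.954). SED1 and CCW14 encode GPI-anchored proteins of the cell wall.

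Reads on the strand opposite the members were few. They made up 0.0543% to 1.30% of reads on both strands in PIR1, at most 0.299% in HSP150, at most 0.942% in CIS3 and 0.251% to 7.08% in PIR3. In PIR1 they were 28, 21 and 19 reads in Med16/Spt20-AID with 3-IAA, against 8, 13 and 16 with DMSO, or 21.4 ± 4.76 and 10.2 ± 1.23 normalized reads (SD, n = 3 each). In PIR3 they were 21, 14 and 12 reads, against 8, 10 and 18 with DMSO, with overlap. These counts were too low to change the sense values, and fold changes from both strands together kept the direction of every member in each strain.

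Genes beside the PIR genes did not follow a common course. FAR1, which encodes an inhibitor of the cell cycle kinase and lies beyond CIS3, fell in all strains on the spike-in scale, with log2 fold changes of -0.82 (adjusted p = 2.92e-07), -0.84 (adjusted p = 5.83e-08) and -1.37 (adjusted p = 9.97e-20, edgeR's quasi-likelihood test with Benjamini-Hochberg adjustment). YKL162C, beyond PIR3, rose in Spt20-AID (0.75, adjusted p = 0.00025 in the edgeR test), was at 0.25 in Med16/Spt20-AID (adjusted p = 0.18) and fell in Med16/Taf13-AID (-2.23, adjusted p = 2.46e-19). MCD4, beyond PIR1, encodes an enzyme of GPI anchor synthesis and was at 0.14 (adjusted p = 0.375) and 0.06 (adjusted p = 0.697) in the edgeR test in both Spt20 strains. In Med16/Taf13-AID it fell (-1.94, adjusted p = 1.12e-29, edgeR). By the same test 54.0% of all genes rose and 8.08% fell in Spt20-AID, and 46.2% rose and 10.3% fell in Med16/Spt20-AID. In Med16/Taf13-AID 98.2% of all genes fell, with a median of -1.68, so FAR1 at -1.37 fell by less than the median gene there.

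PIR5, the remaining PIR gene, was transcribed at a low level. It was 16.25 ± 1.38 normalized reads in Spt20-AID with 3-IAA, against 13.35 ± 3.68 with DMSO (log2 fold change 0.23, SE 0.31, adjusted p = 0.524 in edgeR's quasi-likelihood test with Benjamini-Hochberg adjustment). In Med16/Spt20-AID it was 48.81 ± 5.38 with 3-IAA, against 31.46 ± 9.92 with DMSO, and rose by the same edgeR test (0.68, SE 0.25, adjusted p = 0.017). The rise was not called with TMM scaling (0.39, adjusted p = 0.155 in edgeR), nor without replicate 2 (0.74, adjusted p = 0.0839) or replicate 3 (0.49, adjusted p = 0.186). In Med16/Taf13-AID it had 4, 2 and 1 reads with 3-IAA, against 4, 11 and 7 with DMSO, and fell (-1.98, SE 0.61, adjusted p = 0.00135 in edgeR), but not without replicate 2 (-1.40, adjusted p = 0.0772) or with TMM scaling (-0.35, adjusted p = 0.726). The responses in Med16/Spt20-AID and Spt20-AID differed by 0.45 (SE 0.40, adjusted p = 0.681 in edgeR), so the rise was not shown to differ between them. Reads on the opposite strand were 23.6% to 61.1% of the reads of PIR5, far above the share in any member.

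Genes known to depend on Slt2 and Rlm1, the cell wall integrity output, mostly fell in both Spt20 strains. In Spt20-AID 10 of 14 fell, 0 rose and 4 did not pass edgeR's quasi-likelihood test with Benjamini-Hochberg adjustment, where 8.08% of all genes fell and 54.0% rose. CWP1, a mannoprotein of the wall, fell most (-2.14, SE 0.15), followed by YPS3, an aspartic protease at the cell surface (-1.41, SE 0.20), and KDX1, a kinase related to Slt2 (-1.33, SE 0.15). In Med16/Spt20-AID 11 of 14 fell and 0 rose, against 10.3% and 46.2% of all genes, with KDX1 at -1.37 (SE 0.15), PST1 at -1.29 (SE 0.14) and CRH1, a glucan-chitin crosslinking enzyme, at -1.18 (SE 0.14). The list medians were -0.62 and -0.64, and with TMM scaling all 14 fell in both strains. SED1, the gene most like HSP150, was at 0.02 (SE 0.15) and -0.26 (SE 0.15) and passed the test in neither.

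Lists of wall protein and wall enzyme genes, which share genes with the output list, also mostly fell. Of 17 tested genes for GPI-anchored wall proteins, 10 fell and 2 rose in Spt20-AID, and 10 fell and 1 rose in Med16/Spt20-AID, with medians of -0.37 and -0.63. Of all genes 8.08% fell and 54.0% rose in Spt20-AID, and 10.3% fell and 46.2% rose in Med16/Spt20-AID. CWP1 and CWP2, which encode small wall mannoproteins, were at -2.14 (SE 0.15) and -1.70 (SE 0.15) in Spt20-AID, and GAS1, a glucan-elongating enzyme, was at -1.21 (SE 0.15) in Med16/Spt20-AID. Of 18 genes listed for enzymes that make or modify the wall, 11 and 10 fell and 0 rose in these strains. The glucanase EXG1 was at -0.89 (SE 0.15) and -1.45 (SE 0.15), and NCA3, of the SUN family, at -0.96 (SE 0.17) and -1.23 (SE 0.17). CWP1, SED1, CRH1, YPS1 and PST1 are both in the output list and among GPI proteins. BGL2, FKS2 and CHS3 are both in the output list and among the enzymes, so the counts of the lists are not independent. The lists keep more falls than rises under every scaling in these 2 strains.

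Genes that act upstream of the PIR genes, or process their proteins, gave calls in both directions. Of 20 signalling genes of the cell wall integrity pathway, 12 rose and 2 fell in Spt20-AID, and 4 rose and 3 fell in Med16/Spt20-AID, but with TMM scaling the balance turned, to 4 rising and 7 falling and to 1 rising and 6 falling. Among all genes 54.0% rose and 8.08% fell in Spt20-AID, which is near the shares of this list, and 46.2% rose and 10.3% fell in Med16/Spt20-AID. SLT2, which is also counted in the output list, fell in both (-0.58, adjusted p = 0.000256, and -0.47, adjusted p = 0.00378, in edgeR). MKK1, a kinase above Slt2, rose in both (0.74 and 0.69), and RLM1 was at 0.15 and 0.12 (adjusted p = 0.369 and 0.453 in edgeR). Of 12 genes for O-mannosylation and Kex2, 6 rose and 1 fell in Spt20-AID and 4 rose and 1 fell in Med16/Spt20-AID, counts that became 0 and 3 and 0 and 1 with TMM scaling, and these shares too were near or below those of all genes. The gene that fell in both was MNN1, a mannosyltransferase (-0.83, SE 0.15, and -1.06, SE 0.15).

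Of 13 G1/S genes, 7 fell and 0 rose in Spt20-AID and 9 fell and 0 rose in Med16/Spt20-AID, led by RNR1, the large subunit of ribonucleotide reductase (-1.33, SE 0.14, and -1.91, SE 0.15). The shares of all genes were 8.08% falling and 54.0% rising in Spt20-AID, and 10.3% falling and 46.2% rising in Med16/Spt20-AID. Most of the 14 G2/M genes were not called: 2 fell and 3 rose in Spt20-AID and 2 fell and 1 rose in Med16/Spt20-AID. Their medians were 0.21 and 0.01, against 0.38 and 0.31 for all genes, and 12 and 13 of them lay below these values. With TMM scaling 6 and 10 fell and 0 rose. CHS2 is counted both here and among the wall enzymes. The part that a changed distribution of cells over the cycle has in the PIR values was not tested.

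Heat shock genes were counted beside HSP150, which is named for heat shock. Of 17 heat shock genes, 15 rose and 1 fell in Spt20-AID, where 54.0% of all genes rose and 8.08% fell. The list median was 0.45, against 0.38 for all genes, and with TMM scaling 6 rose and 2 fell. SSA4 was at 1.95 (SE 0.15), HSP42 at 1.12 (SE 0.15) and HSP26, the gene that fell, at -0.86 (SE 0.23). In Med16/Spt20-AID 0 rose and 7 fell, against 46.2% and 10.3% of all genes, and with TMM scaling 0 rose and 16 fell. HSP82 was at -0.91 (SE 0.15) and HSP104 at -0.90 (SE 0.15). HSP150 was at -0.07 and -0.33 in the same comparisons.

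In Med16/Taf13-AID every tested gene of these lists fell, as did 98.2% of all genes by the edgeR test on the spike-in scale, with 0.0719% higher, so the lists are given relative to the median of -1.68. The medians of several lists lay above it, at -1.36 for the output genes (11 of 14 above the median), -1.22 for GPI proteins (12 of 17), -1.40 for wall enzymes (14 of 18), -1.58 for signalling genes (14 of 20) and -1.59 for G1/S genes (8 of 13). The heat shock genes (-1.92), the G2/M genes (-1.94) and the O-mannosylation genes (-1.84) lay below. With TMM scaling 7 output genes rose and 2 fell, and 10 GPI protein genes rose and 2 fell.

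**Figure D4:**
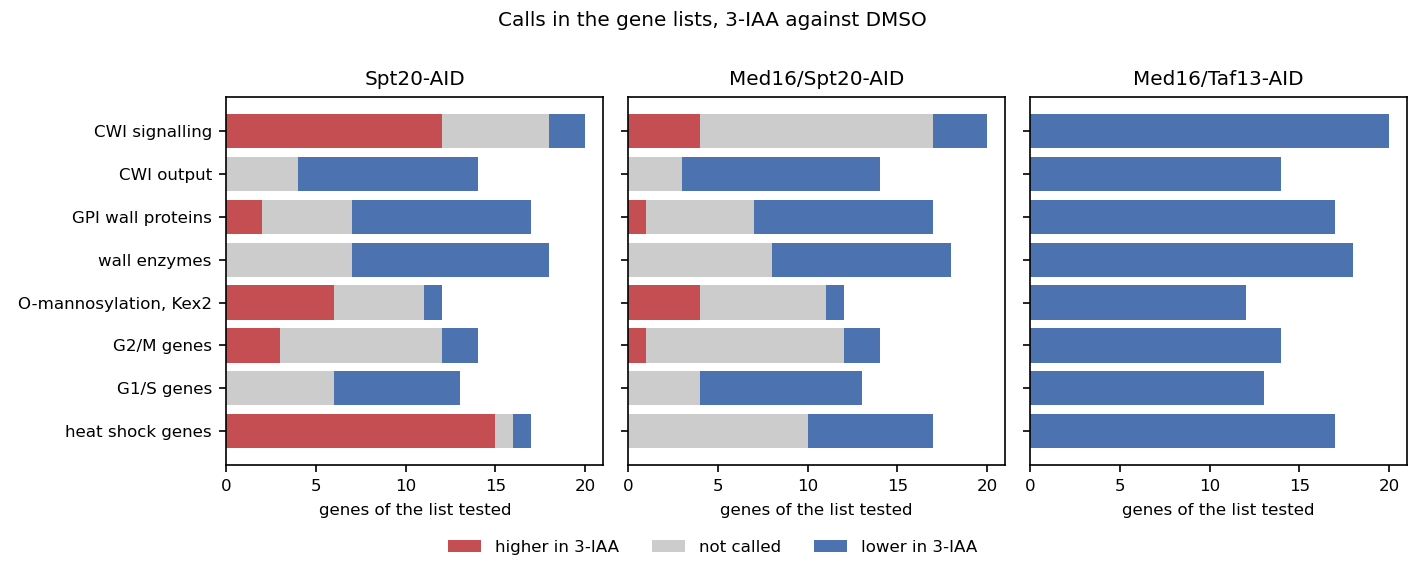
Number of tested genes of each list (x axes) that were higher, not called or lower with 3-IAA by edgeR's test (adjusted p under 0.05) in the 3 strains; CWI is the cell wall integrity pathway. On this spike-in scale 10, 11 and 14 of 14 output genes fell, and 15 heat shock genes rose in Spt20-AID, with 0 rising in Med16/Spt20-AID; with TMM scaling 2 output genes fell in Med16/Taf13-AID and 6 heat shock genes rose in Spt20-AID.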

How the data were processed

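nsRNA-seq counts of 18 libraries were used, 3 replicates in each of 6 groups as GEO's labels number them. The methods state that cultures were split before treatment; they do not state that a number marks a culture, so p-values measure the spread between these libraries. Per the labels, the authors used STAR 2.6.1a and sacCer3. They deposited raw read counts per gene for both strands and for each strand, of which the sense column was used. The size factors of the authors' S. pombe spike-in were recovered by least squares from the mean normalized counts of 1396 genes in their supplement (median relative error 6.71e-05%), because the deposited counts hold no spike-in reads. The 5567 genes averaging 10 or more counts were fitted in edgeR 4.0.16 (R 4.3.3), with 6 groups, the quasi-likelihood test and Benjamini-Hochberg adjustment at 0.05. Each standard error is the size of the log2 fold change over the square root of the F statistic. Rows that name no gene (68.8% to 86.6% of reads) entered no library size.

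The members and the gene lists were chosen with earlier results of these data known, and no test was applied to the members. Named list genes are up to 3 per list and comparison with the largest called change, beside those named for their role after their values were seen (SLT2, RLM1, SED1). Likeness was the 3 highest correlations per member, and neighbours were the nearest annotated protein-coding genes. One gene list and 1 motif are not reported here. TIR1 and DAN1 had too few counts to be tested. No 2 replicates agreed within counting noise. In simulated counts of 5567 genes with a dispersion of 0.02 and 200 genes changed by a log2 value of 1, the test recovered 93% of them for Spt20-AID (4.12% false calls) and 76.5% for the difference between the strains (1.92%). Alternatives were TMM and median-of-ratios scaling, DESeq2 1.42.0, other count filters, both strands, fewer libraries, a replicate block and leaving out replicates. Tables and plots were made in Python 3.11.15 (matplotlib 3.10.9, numpy 2.4.6, pandas 2.3.3). In Med16/Spt20-AID, same-numbered libraries deviated together (r = 0.452, 0.468 and 0.226), which pairs them by the rule of a correlation over 0.1 in every pair.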

Additional observations from a re-analysis of the deposited data

Results flagged for a closer look

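The response of PIR3 to 3-IAA in Med16/Spt20-AID exceeded that in Spt20-AID by 1.30 on the log2 scale, since all its libraries with 3-IAA were higher than those with DMSO in Med16/Spt20-AID and lower in Spt20-AID. This difference was not tested, because the gene was chosen on these counts.

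The same difference between the strains passed edgeR's interaction test with Benjamini-Hochberg adjustment for 14 genes of the lists. It was positive for CWP1 (0.98, adjusted p = 0.000213) and CWP2 (0.74, adjusted p = 0.00938), both of which fell less in Med16/Spt20-AID than in Spt20-AID. It was negative for the cell separation genes DSE2 (-0.66, adjusted p = 0.0287) and EGT2 (-0.86, adjusted p = 0.0013). Among heat shock genes it was -2.02 for SSA4, -1.74 for HSP42, -1.73 for HSP104, -1.57 for HSP78, -1.33 for HSP82, -0.87 for CPR6, -0.80 for SSA1, -0.77 for FES1, -0.72 for MDJ1 and -0.66 for SIS1, with adjusted p-values of up to 0.0492 in edgeR. With DMSO all 10 of these heat shock genes were 2.02 to 7.62 times as high in Med16/Spt20-AID as in Spt20-AID (SSA4 7829 against 1028 normalized reads, HSP42 5449 against 1114, HSP104 16654 against 4365), and with 3-IAA they were 1.00 to 1.87 times as high (SSA4 7432 against 3973). The ratio over all genes had a median of 2.01 with DMSO and 1.87 with 3-IAA.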

How the results depend on the processing

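All 3 scaling methods gave the same direction for the members in Spt20-AID and Med16/Spt20-AID, apart from PIR1 in Spt20-AID. With TMM, PIR1, HSP150, PIR3 and CIS3 were at -0.32, -0.45, -1.23 and -1.63 in Spt20-AID, at -0.60, -0.62, 0.10 and -1.55 in Med16/Spt20-AID, and at 0.35, 0.39, 1.10 and 0.13, reversed, in Med16/Taf13-AID. With median-of-ratios scaling they were at -0.30, -0.43, -1.21 and -1.61, at -0.57, -0.60, 0.13 and -1.52, and at 0.37, 0.41, 1.12 and 0.15, reversed. Genes called were 3454, 3149 and 5471 in the 3 strains and 181 for the difference; they were 2346, 1863, 1643 and 859 with TMM and 2451, 1983, 1644 and 859 with median-of-ratios. TMM turned the split in Spt20-AID to 951 higher and 1395 lower (3004 and 450 with the spike-in), in Med16/Spt20-AID to 663 and 1200 (2573 and 576) and in Med16/Taf13-AID to 833 and 810 (4 and 5467). When each replicate was left out, genes called ranged over 1962 to 3619 (lowest without Spt20-AID replicate 3), 1090 to 2202 (lowest without Med16/Spt20-AID replicate 2, and 1554 without replicate 3), 5373 to 5452, and 106 to 581 for the difference (106 without Med16/Spt20-AID replicate 2, 581 without Spt20-AID replicate 3). In Spt20-AID PIR1 ranged over -0.29 to 0.31, HSP150 over -0.43 to 0.21, PIR3 over -1.05 to -0.76 and CIS3 over -1.60 to -1.10, with the lowest values without replicate 3. In the difference of Med16/Spt20-AID and Spt20-AID PIR1 ranged over -0.62 to -0.02, HSP150 over -0.54 to 0.10 (reversed without Spt20-AID replicate 3), CIS3 over -0.15 to 0.35 and PIR3 over 1.17 to 1.46; the cause was not tested. The order of CIS3 and PIR1 in Spt20-AID with DMSO turned without length scaling. Over all strains 7 of 9 same-numbered pairs correlated above 0.1, and 9 of 9 correlated best with their own number. The replicate block gave 3346, 2882 and 5469 called genes and 155 for the difference, kept the direction of all members, and put PIR3 at -0.88, 0.43 and -0.54.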
